A study of Arabidopsis thaliana with 4 samples.

Results

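The core and linker histone genes of Arabidopsis thaliana comprise 45 of the 24288 loci for which RNA levels were deposited: 13 H2A genes, 11 H2B genes, 10 H3 genes, 8 H4 genes and 3 linker H1 genes. They were picked by locus number, by a rule that uses no measured value, though earlier results of these data were known when they were chosen. The study compared 12-day-old seedlings of the Columbia ecotype: atprmt5, a mutant in PRMT5 (a gene for a protein arginine methyltransferase), the lines m90 and s215, and wild type. All were grown at 23 °C with 16 h of light and 8 h of darkness per day, on Murashige and Skoog plates containing 3% sucrose. The series describes work on suppressors of atprmt5. Its labels call m90 and s215 mutants, but which gene is altered in either, and whether either also carries the atprmt5 mutation, is information not given in the sources used here. Each genotype was measured in 1 library, so there is no replicate check, no test between genotypes and no p-value, and every difference is one between libraries.

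Histone octamers of H2A, H2B, H3 and H4 wrap DNA into nucleosomes, and H1 binds the DNA between them. Canonical H2A, H2B, H4 and H3.1 are made mainly in S phase and are deposited behind the replication fork, H3.1 by the CAF-1 chaperone. H3.3 is made throughout the cell cycle and is deposited by HIRA and other chaperones at transcribed genes. Among the H2A variants, H2A.Z is placed near transcription start sites by the SWR1 complex, H2A.X is phosphorylated at DNA breaks, and H2A.W marks heterochromatin. PRMT5 dimethylates arginines of histones and of splicing proteins. Growing seedlings carry S-phase cells mainly in the root and shoot meristems and in young leaves.

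Replication-dependent histone promoters of plants are known for the octamer CGCGGATC and for the hexamer ACGTCA, so the 250 bases before each gene's start were searched for them on both strands. The octamer lay in 10 of 45 histone windows (22.2%), against 37 of 27443 windows of all genes (0.135%). Those 10 were AT5G65360, AT1G09200 and AT5G10400 among the 5 H3.1 genes, AT1G07660 and AT5G59690 among the 8 H4 genes, the canonical H2A genes HTA10 and HTA13, the H2A.W gene HTA6, the H3.3 gene AT4G40040 and the H1 gene AT1G06760. The hexamer lay in 11 histone windows (24.4%), against 7.69% of all windows, and 8 of the 11 were H2B genes. Neither motif contains the other. The windows below are those of genes the results turn on, from RefSeq TAIR10.1, each 5′ to 3′ on the gene's strand and ending at the base before its start. They overlap no exon of another gene. Capitals mark the octamer or the hexamer, and a window with no capitals holds neither.
H3.1 gene AT1G09200, chr1:2972335-2972584, minus strand: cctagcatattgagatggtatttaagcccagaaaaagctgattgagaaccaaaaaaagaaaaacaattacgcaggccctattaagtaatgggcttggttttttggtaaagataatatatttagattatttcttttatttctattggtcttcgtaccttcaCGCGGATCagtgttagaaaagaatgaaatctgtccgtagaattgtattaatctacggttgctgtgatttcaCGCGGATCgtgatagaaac
H3.1 gene AT5G65360, chr5:26120582-26120831, minus strand: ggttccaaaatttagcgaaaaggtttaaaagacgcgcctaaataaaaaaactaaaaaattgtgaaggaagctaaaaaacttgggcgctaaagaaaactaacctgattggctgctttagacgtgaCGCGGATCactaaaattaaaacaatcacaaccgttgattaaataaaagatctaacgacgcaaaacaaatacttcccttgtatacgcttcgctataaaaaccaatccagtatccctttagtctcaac
H4 gene AT5G59690, chr5:24051224-24051473, plus strand: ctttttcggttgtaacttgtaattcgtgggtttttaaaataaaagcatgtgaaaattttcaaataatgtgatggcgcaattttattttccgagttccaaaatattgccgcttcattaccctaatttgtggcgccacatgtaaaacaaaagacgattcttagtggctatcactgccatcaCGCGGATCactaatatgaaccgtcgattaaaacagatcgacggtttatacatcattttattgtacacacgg
H2B gene HTB2 (AT5G22880), chr5:7652715-7652964, minus strand: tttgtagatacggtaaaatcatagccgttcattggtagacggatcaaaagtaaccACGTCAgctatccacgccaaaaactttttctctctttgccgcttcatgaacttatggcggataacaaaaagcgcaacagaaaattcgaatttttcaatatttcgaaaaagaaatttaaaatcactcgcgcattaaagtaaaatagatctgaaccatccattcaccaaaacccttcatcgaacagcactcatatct
H3.3 gene AT5G10980, chr5:3473571-3473820, minus strand: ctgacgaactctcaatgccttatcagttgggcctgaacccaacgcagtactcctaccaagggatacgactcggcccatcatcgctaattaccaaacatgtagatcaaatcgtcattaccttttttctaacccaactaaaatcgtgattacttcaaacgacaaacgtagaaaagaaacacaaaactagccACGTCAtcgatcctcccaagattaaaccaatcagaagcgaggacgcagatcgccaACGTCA
H1 gene HIS1-3 (AT2G18050), chr2:7845673-7845922, plus strand: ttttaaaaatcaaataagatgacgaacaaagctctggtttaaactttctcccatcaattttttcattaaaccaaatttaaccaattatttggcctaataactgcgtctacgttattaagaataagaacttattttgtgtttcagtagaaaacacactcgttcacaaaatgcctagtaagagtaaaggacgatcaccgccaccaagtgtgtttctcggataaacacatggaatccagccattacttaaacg
The AT1G09200 window holds the octamer at 90 and 19 bases before the start, AT5G65360 holds it at 126 and AT5G59690 at 71. HTB2 holds the hexamer at 195 bases and AT5G10980 at 61 and 6 bases before the start. Of the other motifs searched, the G-box CACGTG lay in 4 histone windows (6.49% of all windows), the E2F motif TTTGGCGC in those of the H4 genes AT3G45930 and AT3G46320 (0.361% of all windows) and the E2F motif TTTCCCGC in 0 of 45 (0.619% of all windows). A match is a run of letters and was not tested as a binding site.

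Scaling totals, inferred from the RPKM values and annotated exonic lengths, lay between 17350612 and 17901204 reads. PRMT5 (AT4G31120) itself was at 1.25 RPKM in atprmt5, 0.974 in m90 and 1.70 in s215, against 5.94 in wild type; RPKM are reads scaled by transcript length and by the library's total. The library labelled s215 stood apart from the others. It had 2893 loci at 0, against 1736 to 1884 in the other 3, and its median log2 ratio to wild type over the 18688 loci that averaged 1 RPKM or more was -0.15, beside -0.04 for m90. Of 11 root markers, 8 were at 0 in s215, among them the Casparian strip genes CASP1 and CASP2, the quiescent centre gene WOX5 and the root hair gene COBL9, while 0 of 11 were at 0 in any other library. Of the 8, PLT1 and COBL9 were already low in wild type, at 0.467 and 0.670 RPKM. The summed level of the root markers was 7.81 RPKM in s215, against 1530, 1410 and 1607 RPKM in atprmt5, m90 and wild type. Of 8 shoot meristem and primordium markers, 6 were at 0 in s215, including STM and KNAT1, while CLV3 alone was at 0 in m90 and wild type. CLV3, CUC1, CUC2 and CUC3, also among the 6, stood between 0 and 0.483 RPKM in every library, so their 0 in s215 says little. Only 4 of the 8 reached a mean of 1 RPKM over the 4 libraries. The summed level of the 8 was 31.05 RPKM in s215, against 164 in atprmt5, 133 in m90 and 102 in wild type. The mature leaf photosynthesis genes summed to 7180 RPKM in s215, against 23274 in wild type. The s215 library thus had 8 of 11 root markers at 0. The 4 shoot markers averaging 1 RPKM or more were all at least 2-fold lower there than in wild type. So were 7 of the 8 far more abundant mature leaf genes, with a median log2 ratio of -1.61, beside 24.3% of all loci. Of the leaf genes, 0 of 8 were at 0. In bulk RNA, fewer dividing cells and less histone RNA per cell cannot be told apart.

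Of the 45 histone genes, 40 reached a mean of 1 RPKM over the 4 libraries. The 5 below it were the H2A.Z gene HTA4, the H2B genes AT1G08170 and AT5G02570, the H3-like gene AT1G13370 and the centromeric H3 gene HTR12. In the following, higher and lower mean at least 2-fold on the log2(RPKM + 1) scale, which understates changes of low genes. In atprmt5 against wild type, 4 of 40 were higher, where 1.8% of all loci were, and 1 was lower, where 3.32% were; the median log2 ratio was 0.38. In m90 against wild type, 10 of 40 were higher (2.61% of all loci) and 0 lower (2.62%), with a median of 0.54. In s215 against wild type, 2 were higher (12.7% of all loci) and 19 were lower (24.3%), with a median of -0.67. The comparisons of the 3 lines share the wild-type library, so their counts are not independent of each other. Against atprmt5, m90 had 0 histone genes higher (3.63% of all loci) and 0 lower (2.34%), with a median of 0.14, while s215 had 2 higher (12.7%) and 18 lower (23.2%), with a median of -0.86. Of the 40 genes, 25 were highest in m90, as were 22.6% of all loci, and 31 were lowest in s215, as were 46.1% of all loci.

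The s215 count depended on gene length and base composition. With the trend of the log2 ratio in exonic GC content and length removed, 12 of 40 histone genes were lower in s215 than in wild type, where 20.2% of all loci were, and the median was -0.15. All 5 H3.1 genes stayed among the 12. The same step left 3 of 40 higher in atprmt5 and 9 of 40 higher in m90, where 1.93% and 2.72% of all loci were. All H3.1, H3.3 and H4 genes encode a protein identical to that of another member. Among the 24 other genes above the minimum, 1 was higher in atprmt5, 5 were higher in m90 and 9 were lower in s215, each against wild type. The shares of all loci were 1.8%, 2.61% and 24.3%.

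**Figure D1:**
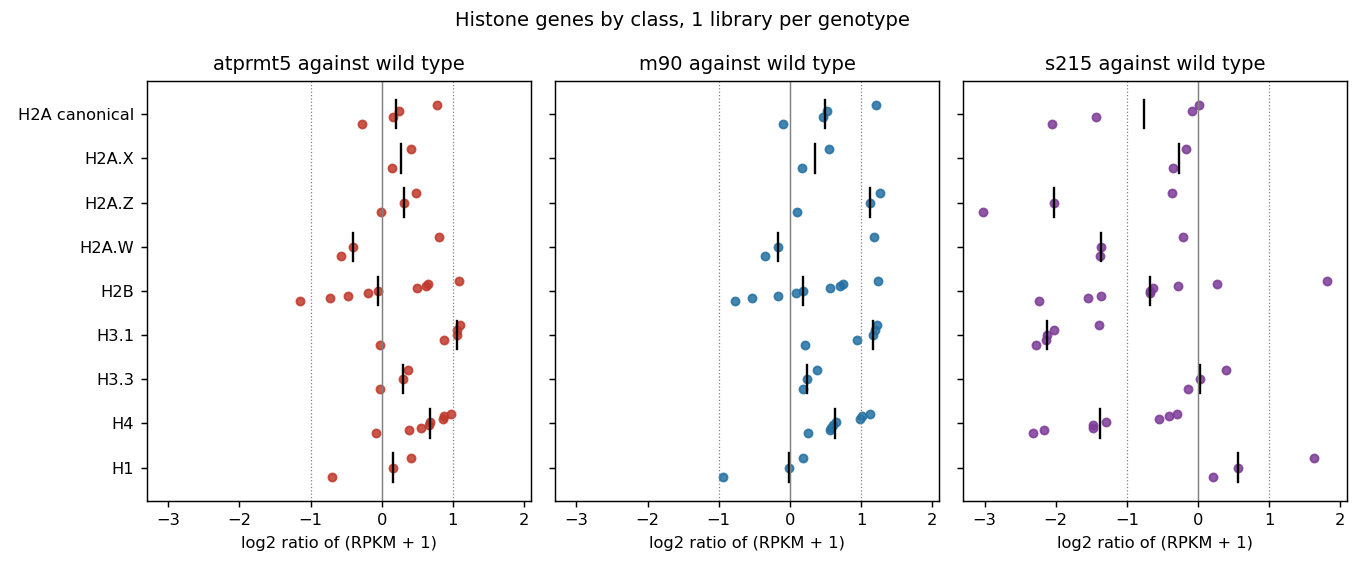
Log2 ratio of (RPKM + 1) against wild type for the 40 histone genes above the minimum, by class, in panels for atprmt5, m90 and s215; each point is 1 gene, vertical bars are class medians and dotted lines mark 2-fold. All 5 H3.1 genes lie below the lower dotted line in s215, while the H3.3 genes stay within 2-fold in every panel.

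The 5 H3.1 genes had the largest shift in their summed level of the 9 classes with at least 2 members in s215, and in atprmt5 and m90 they had the highest ratios to wild type. Each is a single exon, and all 5 encode the same protein of 136 residues. AT1G09200 (chromosome 1, 2971571 to 2972334) stood at 118 RPKM in atprmt5, 127 RPKM in m90 and 13.1 RPKM in s215, against 56.2 RPKM in wild type. Its ratio to wild type was 2.09 in atprmt5 (1.90 to 2.31), 2.26 in m90 (2.05 to 2.50) and 0.233 in s215 (0.192 to 0.281); brackets hold 95% intervals that cover counting error only. It was above wild type in the first pair of lines and far below it in s215. AT5G10400 (chromosome 5, 3270172 to 3270957) had 109.7 RPKM in atprmt5, 139 RPKM in m90 and 12.9 RPKM in s215, against 59.1 RPKM in wild type, with the same order of the 4 libraries as AT1G09200. Its neighbour AT5G10390 (3268847 to 3269594) was lower in level but alike in direction, with 28.1 RPKM in atprmt5, 30.01 RPKM in m90 and 4.17 RPKM in s215, against 12.5 RPKM in wild type.

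AT5G65360 (chromosome 5, 26119859 to 26120581) reached 77.3 RPKM in atprmt5, 71.6 RPKM in m90 and 7.56 RPKM in s215, against 36.7 RPKM in wild type. It was the H3.1 gene whose m90 level lay below that in atprmt5, at a ratio of 0.926 (0.846 to 1.01). AT3G27360 (chromosome 3, 10129105 to 10129937) was the exception in the other direction, with 27.2 RPKM in atprmt5, 32.4 RPKM in m90 and 4.90 RPKM in s215, against 27.7 RPKM in wild type. Its ratio to wild type was 0.979 in atprmt5 (0.851 to 1.13), 1.17 in m90 (1.02 to 1.34) and 0.177 in s215 (0.135 to 0.228). It overlaps AT3G27380 on the same strand, and 31.2% of its 100-base windows are shared with that gene. AT3G27380 was at 50.9 RPKM in atprmt5, 55.6 in m90 and 36.0 in s215, against 48.1 in wild type, so reads of this H3.1 gene cannot be fully separated from those of its neighbour.

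The 3 H3.3 genes carry introns (3 to 5 exons) and encode a protein that differs from H3.1 at 4 of 136 residues. AT4G40040, the highest of them, stood at 167 RPKM in atprmt5, 193 RPKM in m90 and 173 RPKM in s215, against 170.03 RPKM in wild type. Its range over the 4 libraries was narrow, and the s215 ratio of 1.02 had an interval of 0.966 to 1.07. AT4G40030 had 65.4 RPKM in atprmt5, 65.7 RPKM in m90 and 45.6 RPKM in s215, against 50.3 RPKM in wild type. AT5G10980 was the H3.3 gene highest in s215, with 33.3 RPKM there, 31.3 RPKM in atprmt5 and 30.1 RPKM in m90, against 25.2 RPKM in wild type. None of these 3 genes reached 2-fold in any of the 5 comparisons.

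**Figure D2:**
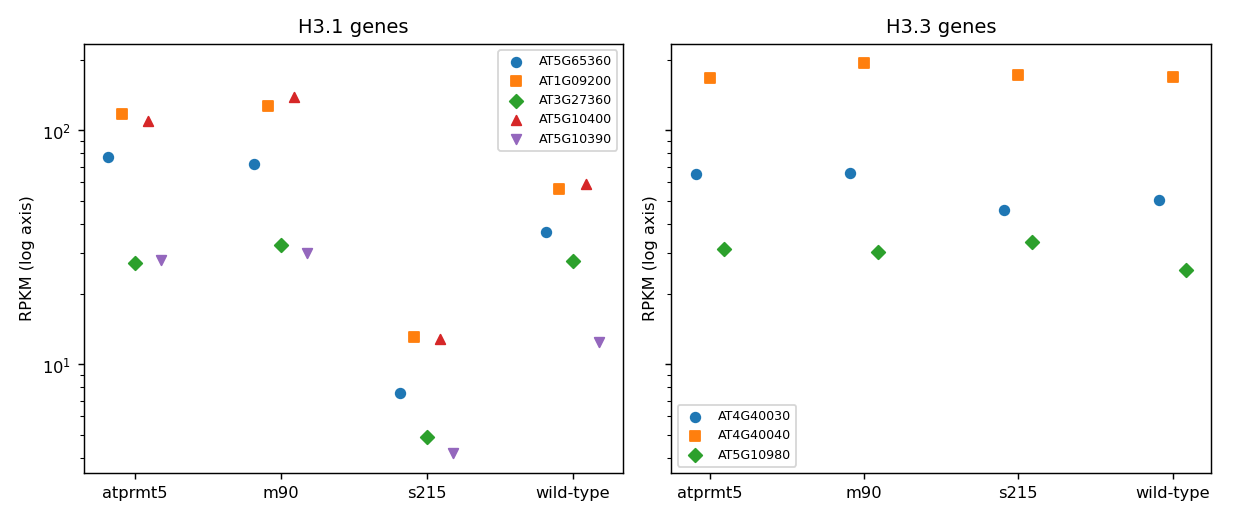
RPKM (log axis) of the 5 H3.1 genes (left) and the 3 H3.3 genes (right) in the atprmt5, m90, s215 and wild-type libraries; each marker is 1 gene. H3.1 levels in s215 lie between 4.17 and 13.1 RPKM, below every wild-type H3.1 level except that of AT5G10390, while H3.3 levels keep nearly the same order and height in all 4 libraries.

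Levels were also summed over the genes of a class, since single values of near-identical copies, as among the H4 genes, are uncertain. Of the H3.1 and H3.3 genes, 0 shared a read-length window with another histone gene, exactly or within 2 mismatches. A sum does not remove reads shared with a gene outside the class, such as those of AT3G27360 and AT3G27380. The H3.1 sum was 360.0 RPKM in atprmt5, 400.2 RPKM in m90 and 42.6 RPKM in s215, against 192 RPKM in wild type. These were ratios of 1.87 (1.78 to 1.97), 2.08 (1.98 to 2.19) and 0.221 (0.201 to 0.244). The H3.3 sum was 264 RPKM in atprmt5, 289 RPKM in m90 and 252 RPKM in s215, against 246 RPKM in wild type. H3.1 thus made up 57.7% of the H3.1 and H3.3 total in atprmt5, 58.1% in m90 and 14.5% in s215, against 43.9% in wild type. On the log2 scale, the H3.1 difference minus the H3.3 difference was 0.80 in atprmt5 (0.71 to 0.90), 0.82 in m90 (0.73 to 0.91) and, in s215, -2.21 (-2.36 to -2.06). Between m90 and atprmt5 it was 0.02 (-0.06 to 0.10), and between s215 and atprmt5 it was -3.01 (-3.16 to -2.86). With the GC and length trend removed, these differences against wild type were 0.75 for atprmt5, 0.77 for m90 and -2.14 for s215.

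The other H3 genes were scarce in every library. HTR12, the centromeric H3, had 1.295 RPKM in atprmt5, 0.849 RPKM in m90 and 0.155 RPKM in s215, against 0.581 RPKM in wild type, from 17.3, 11.3, 2.01 and 7.5 recovered reads. The H3-like gene AT1G13370, whose protein differs from H3.1 at 9 residues and from H3.3 at 7, had 0.603 RPKM in atprmt5, 0.867 RPKM in m90 and 0 in s215, against 0.445 RPKM in wild type. No fold is given for either, since wild type rests on few reads.

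H4, the partner of H3 in nucleosome assembly, followed H3.1 in direction with a smaller size. The 8 H4 genes encode 1 protein of 103 residues, and 7 of them are single exons. Their sum was 394 RPKM in atprmt5, 425 RPKM in m90 and 133 RPKM in s215, against 256 RPKM in wild type, at ratios of 1.53 (1.46 to 1.61), 1.66 (1.58 to 1.74) and 0.518 (0.486 to 0.552). AT5G59970 spanned the widest range, with 57.4 RPKM in atprmt5, 73.4 RPKM in m90 and 6.36 RPKM in s215, against 35.7 RPKM in wild type. AT5G59690 had 59.1 RPKM in atprmt5, 80.5 RPKM in m90 and 14.3 RPKM in s215, against 36.4 RPKM in wild type. These were the H4 genes higher in m90, at ratios of 2.06 (1.80 to 2.34) and 2.21 (1.95 to 2.50).

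In s215, 5 of the 8 H4 genes were lower than in wild type: AT5G59970, AT5G59690, HIS4, AT3G45930 and AT3G46320. HIS4 (AT2G28740) had 52.3 RPKM in atprmt5, 44.6 RPKM in m90 and 9.46 RPKM in s215, against 28.1 RPKM in wild type. AT3G46320 had 26.0 RPKM in atprmt5, 21.8 RPKM in m90 and 2.33 RPKM in s215, against 13.9 RPKM in wild type. Its near-copy AT3G45930, the least abundant H4 gene, stood at 16.6 RPKM in atprmt5, 16.8 RPKM in m90 and 2.26 RPKM in s215, against 8.01 RPKM in wild type. The last gene was above 2-fold in plain ratio in atprmt5 (2.08) and m90 (2.099) but not on the log2(RPKM + 1) scale. AT1G07820, the most abundant H4 gene, differed less between libraries, with 107 RPKM in atprmt5, 109.8 RPKM in m90 and 54.7 RPKM in s215, against 73.0 RPKM in wild type. AT3G53730 and AT1G07660, the single H4 gene with an intron, likewise stayed within 2-fold in s215, at ratios of 0.678 and 0.806 to wild type. Single H4 values are uncertain: 4 of the 8 share exact 100-base windows with another H4 gene, up to 12.1% of their length, and 6 share windows within 2 mismatches, up to 41.7%.

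**Figure D3:**
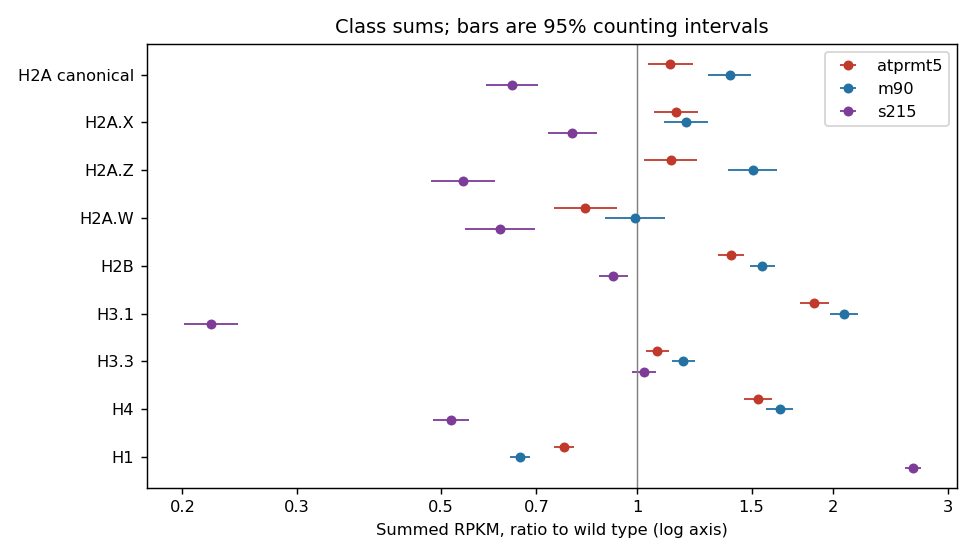
Summed RPKM of each histone class as a ratio to wild type (log axis) in atprmt5, m90 and s215; points are the 9 classes with at least 2 members and horizontal bars are 95% counting intervals. H3.1 and H1 stand farthest from 1 in s215, at 0.221 and 2.65, while H3.3 lies at 1.02; the H1 sum is mostly HIS1-3, which makes up 87.3% of it in s215 and 74.6% in wild type.

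Canonical H2A genes were split within the class. HTA10, the most abundant, had 39.5 RPKM in atprmt5, 48.3 RPKM in m90 and 7.24 RPKM in s215, against 33.3 RPKM in wild type. HTA13, the least abundant, had 17.5 RPKM in atprmt5, 23.9 RPKM in m90 and 3.01 RPKM in s215, against 9.79 RPKM in wild type. Both were lower in s215, and HTA13 was also higher in m90, at a ratio of 2.44 (1.95 to 3.07). HTA13 overlaps AT3G20680 on the opposite strand, which was at 8.58, 8.82 and 1.17 RPKM in atprmt5, m90 and s215, against 11.4 RPKM in wild type, and whether counting used strand is a detail not given in the sources used here. RAT5 (AT5G54640) and HTA2 stayed near wild type in s215, with ratios of 1.01 (0.861 to 1.18) and 0.945 (0.800 to 1.11). The pair low in s215, HTA10 and HTA13, is also the pair whose upstream windows hold the octamer. Among all histone genes above the minimum, 7 of 10 with the octamer and 12 of 30 without it were lower in s215, beside 24.3% of all loci.

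The H2A.Z genes showed the same kind of split. HTA11 stood at 22.6 RPKM in atprmt5, 36.0 RPKM in m90 and 1.09 RPKM in s215, against 15.9 RPKM in wild type. HTA8 stood at 6.59 RPKM in atprmt5, 13.6 RPKM in m90 and 0.498 RPKM in s215, against 5.09 RPKM in wild type. For both, m90 was the highest library and s215 nearly lacked the transcript, with 13 recovered reads of HTA11 and 7 of HTA8. Their ratios to wild type were 2.27 (1.91 to 2.70) and 2.68 (2.04 to 3.58) in m90, and 0.0683 (0.0357 to 0.120) and 0.0979 (0.0382 to 0.214) in s215. HTA8 was also above 2-fold between m90 and atprmt5 in plain ratio, at 2.07 (1.62 to 2.68), though not on the log2(RPKM + 1) scale. HTA9 was flatter, with 41.5 RPKM in atprmt5, 44.8 RPKM in m90 and 32.3 RPKM in s215, against 41.8 RPKM in wild type. As a result HTA9 supplied 58.7% of summed H2A.Z in atprmt5, 47.4% in m90 and 95.1% in s215, against 66.6% in wild type. HTA4 was listed at 0 in 3 libraries and at 0.0758 RPKM in s215, which is 1 read.

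**Figure D4:**
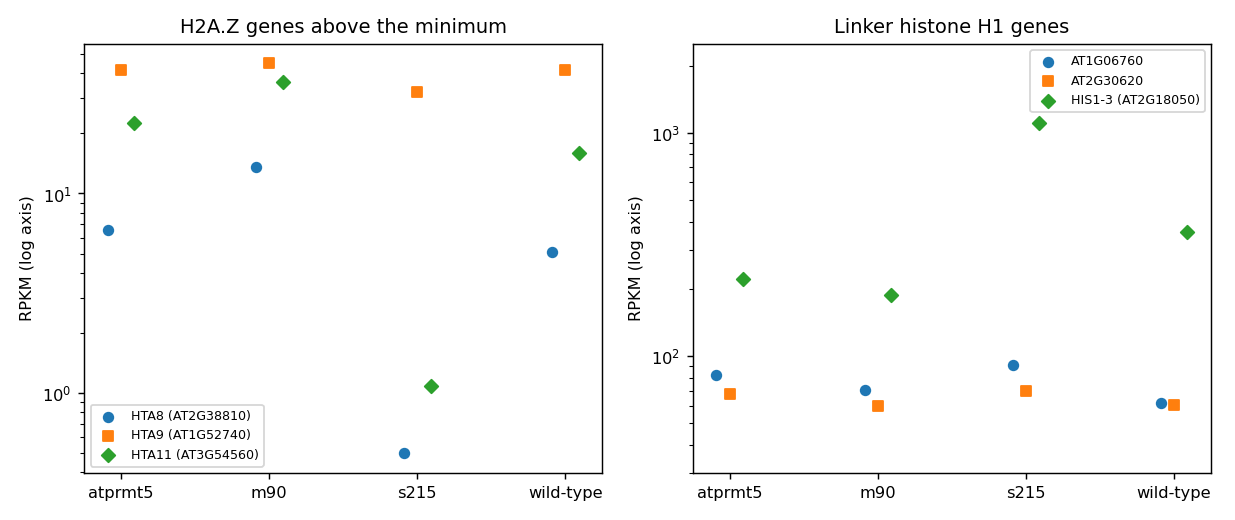
RPKM (log axes) of the 3 H2A.Z genes above the minimum (left) and the 3 linker H1 genes (right) in the atprmt5, m90, s215 and wild-type libraries; each marker is 1 gene. HTA8 and HTA11 stand at 0.498 and 1.09 RPKM in s215 while HTA9 stays at 32.3, and HIS1-3 stands at 1111 RPKM in s215 while the other H1 genes stay under 92.

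Summed H2A.X was 0.795 times that in wild type in s215 (0.729 to 0.868), and summed H2A.W 0.616 times (0.545 to 0.696). H2AXA (AT1G08880) had 79.9 RPKM in atprmt5, 81.3 RPKM in m90 and 56.2 RPKM in s215, against 72.2 RPKM in wild type. GAMMA-H2AX (AT1G54690) had 19.7 RPKM in atprmt5, 21.9 RPKM in m90 and 12.9 RPKM in s215, against 14.6 RPKM in wild type. Neither H2A.X gene reached 2-fold in any comparison. Among the H2A.W genes, HTA6 had 9.83 RPKM in atprmt5, 13.1 RPKM in m90 and 1.38 RPKM in s215, against 5.18 RPKM in wild type, and was both higher in m90 and lower in s215. HTA7 was highest in wild type, with 12.3 RPKM in atprmt5, 16.6 RPKM in m90 and 6.64 RPKM in s215, against 18.7 RPKM in wild type, and was lower in s215 at a ratio of 0.356 (0.276 to 0.452). HTA12, the most abundant of the class, had 20.4 RPKM in atprmt5, 21.0 RPKM in m90 and 23.4 RPKM in s215, against 27.2 RPKM in wild type. HTA6 was the H2A.W gene with the octamer, and HTA7, also lower in s215, was without it.

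The H2A total was divided among its 4 kinds as follows. H2A.Z made up 22.1% of summed H2A in atprmt5, 24.9% in m90 and 17.4% in s215, against 21.3% in wild type. Canonical H2A made up 33.3%, 34.6% and 31.1% in atprmt5, m90 and s215, against 32.05% in wild type. H2A.X made up 31.2% in atprmt5, 27.2% in m90 and 35.4% in s215, against 29.4% in wild type, and H2A.W made up 13.3%, 13.3% and 16.1%, against 17.3% in wild type. The whole H2A sum in s215 was 195 RPKM, against 295 RPKM in wild type, a ratio of 0.661 (0.628 to 0.695), compared with 0.221 for H3.1 and 0.518 for H4.

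H2B genes, all of 1 exon, went in opposite directions in s215. HTB2 (AT5G22880) had 123 RPKM in atprmt5, 136 RPKM in m90 and 18.9 RPKM in s215, against 57.1 RPKM in wild type. It was higher in atprmt5 and m90, at 2.15 (1.96 to 2.36) and 2.38 (2.17 to 2.61), and lower in s215, at 0.331 (0.283 to 0.387). AT2G28720 (chromosome 2, 12326808 to 12327808) ran the other way, with 20.7 RPKM in atprmt5, 13.4 RPKM in m90 and 86.2 RPKM in s215, against 23.7 RPKM in wild type. Its s215 level was 3.63 times that in wild type (3.18 to 4.15) and 4.17 times that in atprmt5 (3.64 to 4.80). It made up 37.0% of summed H2B in s215, against 5.84% in atprmt5, 3.40% in m90 and 9.36% in wild type. The H2B sum itself was 233 RPKM in s215, against 254 RPKM in wild type, a ratio of 0.919 (0.874 to 0.967).

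AT2G37470 had 9.88 RPKM in atprmt5, 18.1 RPKM in m90 and 2.85 RPKM in s215, against 17.1 RPKM in wild type, and was lower in s215. AT3G53650 rested on few reads, with 6 in atprmt5, 13 in m90 and 4 in s215, against 21.6 in wild type. At 0.804 RPKM in atprmt5 and 0.552 RPKM in s215, against 2.98 RPKM in wild type, it was lower in both, with intervals of 0.0877 to 0.672 and 0.0455 to 0.534 around ratios of 0.269 and 0.185. HTB4, the most abundant H2B gene by its mean, had 103 RPKM in atprmt5, 118 RPKM in m90 and 59.0 RPKM in s215, against 72.2 RPKM in wild type. HTB1 was lower in s215 than in atprmt5, with 5.21 RPKM in s215 and 14.6 RPKM in atprmt5, or 0.358-fold (0.266 to 0.476), and stood at 8.93 RPKM in wild type. HTB9, HTB11 and AT3G09480 stayed within 2-fold in every comparison. HTB9 had 28.7 RPKM in s215, against 23.7 RPKM in wild type. It overlaps AT3G45970, which stood at 0.582 RPKM in s215 and 20.9 RPKM in wild type, on the opposite strand. AT1G08170 was under the minimum, yet had 2.06 RPKM (26.2 recovered reads) in s215, against 0.229 RPKM in atprmt5, 0.0767 RPKM in m90 and 0 in wild type. AT5G02570 stayed under 1 RPKM in all 4 libraries, with 5 recovered reads at most.

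The summed linker H1 level ran against the core histone sum, in atprmt5 and m90 through HIS1-3 alone. HIS1-3 (AT2G18050, chromosome 2, 7845923 to 7847031), known as an H1 variant induced by drought and abscisic acid, stood at 221 RPKM in atprmt5, 187 RPKM in m90 and 1111 RPKM in s215, against 358 RPKM in wild type. Its ratio to wild type was 0.617 (0.589 to 0.645) in atprmt5, 0.522 (0.498 to 0.548) in m90 and 3.105 (3.00 to 3.21) in s215. It was thus highest in the library where H3.1 was lowest, and lowest in m90. AT1G06760 had 82.3 RPKM in atprmt5, 70.3 RPKM in m90 and 91.5 RPKM in s215, against 61.5 RPKM in wild type. AT2G30620 had 67.5 RPKM in atprmt5, 59.7 RPKM in m90 and 70.0 RPKM in s215, against 60.2 RPKM in wild type. HIS1-3 made up 59.6% of summed H1 in atprmt5, 59.0% in m90 and 87.3% in s215, against 74.6% in wild type. The H1 sum was 0.772 times that in wild type in atprmt5 and 0.661 times in m90, that is -0.37 and -0.60 on the log2 scale. Without HIS1-3 the 2 other genes gave 0.30 in atprmt5 and 0.10 in m90, so the direction of the H1 sum there rested on HIS1-3. In s215 the H1 sum was 2.65 times that in wild type, or 1.41 on the log2 scale, and 0.41 without HIS1-3.

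The sum over all 45 genes was 2063 RPKM in atprmt5, 2208 RPKM in m90 and 2128 RPKM in s215, against 1724 RPKM in wild type. The 42 core histone genes alone summed to 1692 RPKM in atprmt5, 1891 RPKM in m90 and 855 RPKM in s215, against 1244 RPKM in wild type. Those were ratios of 1.36 (1.33 to 1.39), 1.52 (1.49 to 1.55) and 0.687 (0.671 to 0.704).

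Features that the choice of genes did not use also set members apart. A single exon was found in 23 of 45 histone genes (51.1%), against 20.4% of 24182 loci with annotated exons. The 23 were all 11 H2B genes, all 5 H3.1 genes and 7 of the 8 H4 genes, so a split by exon number largely repeats the split by class. Among the histone genes above the minimum, those with 1 exon had a median log2 ratio to wild type of 0.65 in atprmt5, 0.64 in m90 and -1.39 in s215, and those with introns 0.16, 0.25 and -0.21. All loci with 1 exon had medians of -0.09, -0.08 and -0.42 in the same order, and all loci with introns 0.01, -0.03 and -0.10. Of the 10 genes with the octamer, 5 were higher in m90 and 7 were lower in s215 than in wild type. Of the 30 genes without it that passed the minimum, 5 were higher in m90 and 12 were lower in s215. Over all loci, 2.61% were higher in m90 and 24.3% lower in s215. Whether the motif has a part in these counts was not tested.

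Of 24 histone chaperones and exchange factors, which place and remove histones, 0 were past 2-fold in atprmt5 or m90, where 1.8% to 3.32% of all loci were in either direction, and the medians were 0.20 and 0.05. In s215, 2 were higher and 2 lower than in wild type, where 12.7% and 24.3% of all loci were, and the median was 0.15. The 3 highest there were PIE1, the SWR1 ATPase (17.4 against 6.87 RPKM in wild type), SPT6L (117 against 54.4 RPKM) and SWC2 (39.8 against 21.6 RPKM). The 3 lowest were FAS1, a CAF-1 subunit (6.14 against 12.3 RPKM), the chaperone ASF1B (0.848 against 3.37 RPKM) and the remodeller DDM1 (0.553 against 5.83 RPKM).

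Cell cycle genes had medians of the same sign as those of the H3.1 genes. Of 19 S phase DNA replication genes above the minimum, 0 were higher in atprmt5, 3 were higher in m90 and 13 were lower in s215, with medians of 0.51, 0.56 and -1.45 against wild type. The lowest in s215 were TSO2, a ribonucleotide reductase subunit (2.23 against 14.8 RPKM in wild type), the replication clamp PCNA1 (3.20 against 16.2 RPKM) and the helicase subunit MCM2 (1.95 against 9.59 RPKM), while TK1A, E2FA and RNR2A were nearest to wild type. Of 14 G2 and M phase genes above the minimum, 1 was higher in atprmt5, 4 were higher in m90 and all 14 were lower in s215, with medians of 0.43, 0.76 and -2.56. For both lists the shares of all loci were 1.8% higher in atprmt5, 2.61% higher in m90 and 24.3% lower in s215. The cytokinesis syntaxin KNOLLE was at 9.78 RPKM in s215, against 155 RPKM in wild type. The S phase genes summed to 240.5 RPKM in atprmt5, 263 RPKM in m90 and 48.8 RPKM in s215, against 157 RPKM in wild type. The part of dividing cells, or of the low root and meristem markers, in the s215 histone levels was not tested.

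**Figure D5:**
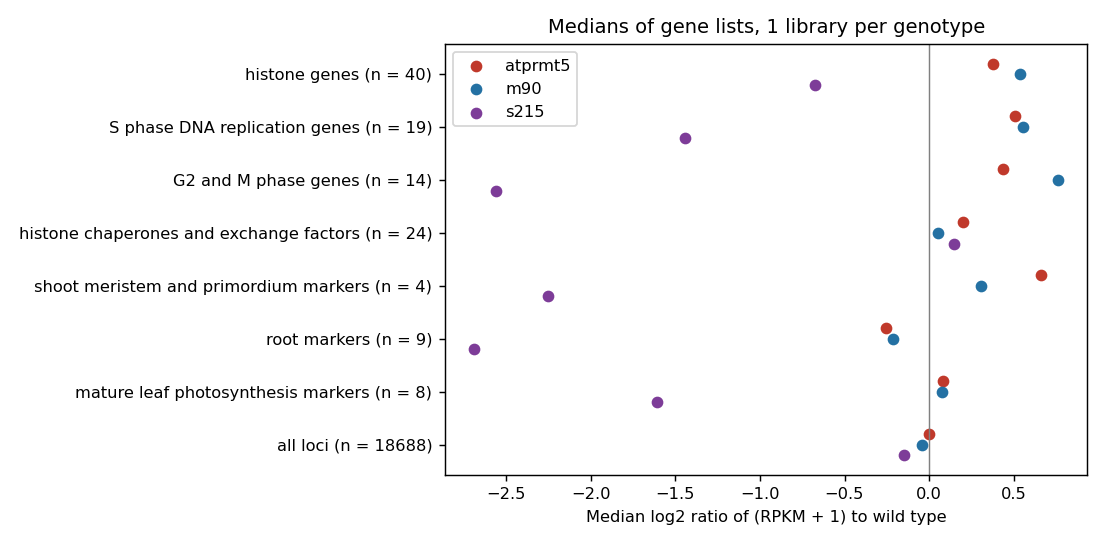
Median log2 ratio of (RPKM + 1) to wild type over the genes above the minimum in each list, with the number of genes in brackets, in atprmt5, m90 and s215. The histone, S phase and G2 and M phase medians are all above 0 in atprmt5 and m90 and below 0 in s215. The root and shoot meristem markers also lie below 0 in s215, as do the mature leaf photosynthesis markers, at -1.61, and the chaperones lie at 0.15.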

How the data were processed

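RNA was measured by sequencing in 4 Arabidopsis seedling libraries, 1 per genotype, grouped by the genotype label. Trizol extraction was followed by a strand-specific SMART library method, per the labels' protocols. TopHat2 2.0.11 and the build TAIR10 were used, per the submitters' processing notes. The authors deposited RPKM values for 24288 loci by library. How reads were counted, whether by strand and with or without multiply mapped reads, is something not given in the sources used here. Log2 ratios were taken with a pseudocount of 1 RPKM among the 18688 loci averaging at least 1 RPKM across libraries, and a locus was called at 2-fold. All 45 members were found.

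Reads were recovered by finding, for each member, a whole-number length at which its values in the 4 libraries are whole bases of 100-base reads (tolerance 0.0001 bases). That worked for 45 of 45 members, and in 7 the length was multiplied up to reach the shortest coding length. It equalled the RefSeq length for 6, so recovered reads and intervals are approximate. Ratios have 95% Clopper-Pearson intervals conditional on the summed reads, and class sums have delta-method intervals. They cover counting error only, leaving out variation between plants, and the reads carry no molecular identifiers, so they are not independent molecules. The scripts were tested on simulated data.

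Gene structure, shared 100-base windows (exact, and within 2 mismatches) and the 250 bases upstream of each gene came from RefSeq TAIR10.1. Gene symbols are those RefSeq gives; other genes carry their locus number. Alternatives were other pseudocounts (0.1 and 5), no minimum and a minimum of 5 RPKM, centring on all loci, removal of the trend in GC content and length (20 bins each), members with a unique protein, class medians and class sums without the top member. Named with values were the members past 2-fold, the highest and lowest of each class, all H3.1, H3.3 and H1 genes, and the 3 highest and 3 lowest of other lists. Not all of those from the other lists are printed; members outside this rule were named to account for all 45. The members and gene lists were chosen with earlier results of these data known. WUS, of the shoot meristem list, was absent from the loci with RPKM values, so it could not be analysed. Tools were Python 3.11.15, pandas 2.3.3, NumPy 2.4.6, SciPy 1.17.1, Biopython 1.88 and matplotlib 3.10.9.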

Additional observations from a re-analysis of the deposited data

How the results depend on the processing

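No paired analysis was possible because each genotype had 1 library. For the same reason no library could be left out of a group, and differences between plants are not in any interval. In atprmt5 against wild type, the count of higher histone genes was 4, and was 2 with a pseudocount of 5 and 1 among members with a unique protein; the count of lower ones was 1, and was 0 with a pseudocount of 5 and with a minimum of 5 RPKM; the median of 0.38 was 0.16 among members with a unique protein. In m90 against wild type, the 10 higher genes became 4 with a pseudocount of 5 and 5 among members with a unique protein, where the median was 0.19, and the difference of H3.1 minus H3.3 was 0.92 from class medians. In s215 against wild type, the 19 lower genes became 12 with the GC and length trend removed, with a median of -0.15, and 9 among members with a unique protein; the class sums past 2-fold were 2, and were 4 with the most abundant member of each class left out, a setting in which 27 of the 45 single class-sum ratios moved beyond their counting error. Between m90 and atprmt5, 2 genes were higher with a pseudocount of 0.1 and H3.1 minus H3.3 was 0.10 from class medians. Between s215 and atprmt5, the 18 lower genes became 8 among members with a unique protein. The unique-protein setting left out all 5 H3.1, all 3 H3.3 and all 8 H4 genes, as each shares its protein with another member. Of the 19 genes lower in s215 than in wild type, 5 were H3.1 and 5 were H4 genes. Of the 4 higher in atprmt5, 3 were H3.1 genes. The cause of the other shifts was not tested. Over single genes and settings, 1476 values kept their call, 28 lost it, 6 gained it and 0 changed direction. Centring on all loci moved none of the counts by over 1.5 times. A minimum taken without s215, chosen after seeing the data, did not either.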
